A study of Homo sapiens with 6 samples.

Results

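The 9 genes described here encode enzymes of asparagine, glutamate, alanine, proline and cysteine metabolism and were followed across 6 RNA-seq libraries: ASNS, GOT1, GPT2, GLUD1, PCK2, ALDH18A1, PYCR1, CBS and CTH. They were taken by name through their Ensembl identifiers, and all 9 were found among 20263 rows of the deposited count table. The cells were MV4-11, an established human acute myeloid leukaemia line with an internal tandem duplication in the receptor kinase FLT3, and the labels give their genotype as WT. One group received venetoclax, a BCL2 inhibitor, at 100 nM, a second received cyclosporine A (CSA), a calcineurin inhibitor, at 2.5 µM, and the last received both drugs, at doses that the labels do not state for the mixture. Exposure lasted 24 h and each group had 2 libraries, so all 6 came from drug-treated cells of 1 line, and untreated cells were not analysed here. Nothing in the labels says that the 2 libraries of a group came from separate cultures, and their spread may be technical.

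Cells make asparagine, glutamate, alanine, aspartate, proline and cysteine themselves when the supply from outside falls short. Many of the enzymes are under the transcription factor ATF4, which is translated when amino acids run low or the endoplasmic reticulum or mitochondria are stressed, and which binds C/EBP-ATF response elements in target genes. ASNS, PCK2, PYCR1, ALDH18A1, CTH and GPT2 are known among the genes ATF4 can raise. Asparagine supply has a special place in acute leukaemia, because asparaginase, a drug that depletes it, is used against leukaemic cells with little ASNS.

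The ASNS promoter is the textbook example of such an element, so the promoter windows of the 9 genes were searched for its core, TGATGNAA, on both strands (TTNCATCA on the other). The RefSeq promoter table (GRCh38.p14, 250 bases before to 50 after a start) held windows for 7 of the 9 genes, 10 windows in all, and none for GPT2 or PYCR1. The motif stood in 1 window of ASNS, the gene for which it was chosen, and in that of GOT1, and 3.62% of all 35116 windows hold it. Another ASNS window, whose 250 bases before the start are chr7:97872166-97872415, had no motif. The 250 bases before the start are shown for the 2 windows that carry the motif, which is in capitals. ASNS lies on the minus strand of chromosome 7 and the stretch is chr7:97872409-97872658, with the motif beginning 68 bases before the start. GOT1 lies on the minus strand of chromosome 10 and the stretch is chr10:99430625-99430874, with the motif on the opposite strand, its first letter 198 bases before the start.
ASNS: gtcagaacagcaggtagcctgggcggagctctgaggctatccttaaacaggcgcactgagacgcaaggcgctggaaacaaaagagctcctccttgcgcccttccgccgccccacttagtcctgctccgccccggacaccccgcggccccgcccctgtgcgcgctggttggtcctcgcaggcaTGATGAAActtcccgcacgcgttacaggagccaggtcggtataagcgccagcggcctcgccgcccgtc
GOT1: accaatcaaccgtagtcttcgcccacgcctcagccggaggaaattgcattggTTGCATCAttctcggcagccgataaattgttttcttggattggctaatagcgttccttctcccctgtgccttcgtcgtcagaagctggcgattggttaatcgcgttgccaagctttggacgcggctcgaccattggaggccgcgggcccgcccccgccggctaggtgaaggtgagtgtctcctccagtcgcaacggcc

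Total counts ranged from 26567900 to 30738957 per library, and the 9 genes together took 0.0325% to 0.0948% of them. The lowest count of any member in any library was 65, for CTH with venetoclax. Venetoclax replicate 2 stood apart: genes of the mitochondrial genome held 41.5% of its counts, against 7.41% to 15.2% elsewhere, and the members' share of its counts was the lowest of the 6. Levels below are CPM (counts per 1000000 counts of the library) scaled by the trimmed mean of M-values (TMM), and fold changes of the combination against venetoclax are given with and without this library for each of the 9 genes but GLUD1, where the value was near 0 either way. Leaving out a venetoclax library leaves 1 in that group, so the spread in such fits comes from the CSA and combination groups, and the lone library is assumed to vary like theirs. The 8 myeloid and MV4-11 markers, among them FLT3 and CD33, were present in every library with a summed level of 1206 to 2123 CPM before TMM scaling. The 3 T cell and 3 erythroid markers were at 0 in every library, and the summed B cell, epithelial and fibroblast markers reached at most 3.80, 0.134 and 0.226 CPM.

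**Figure D1:**
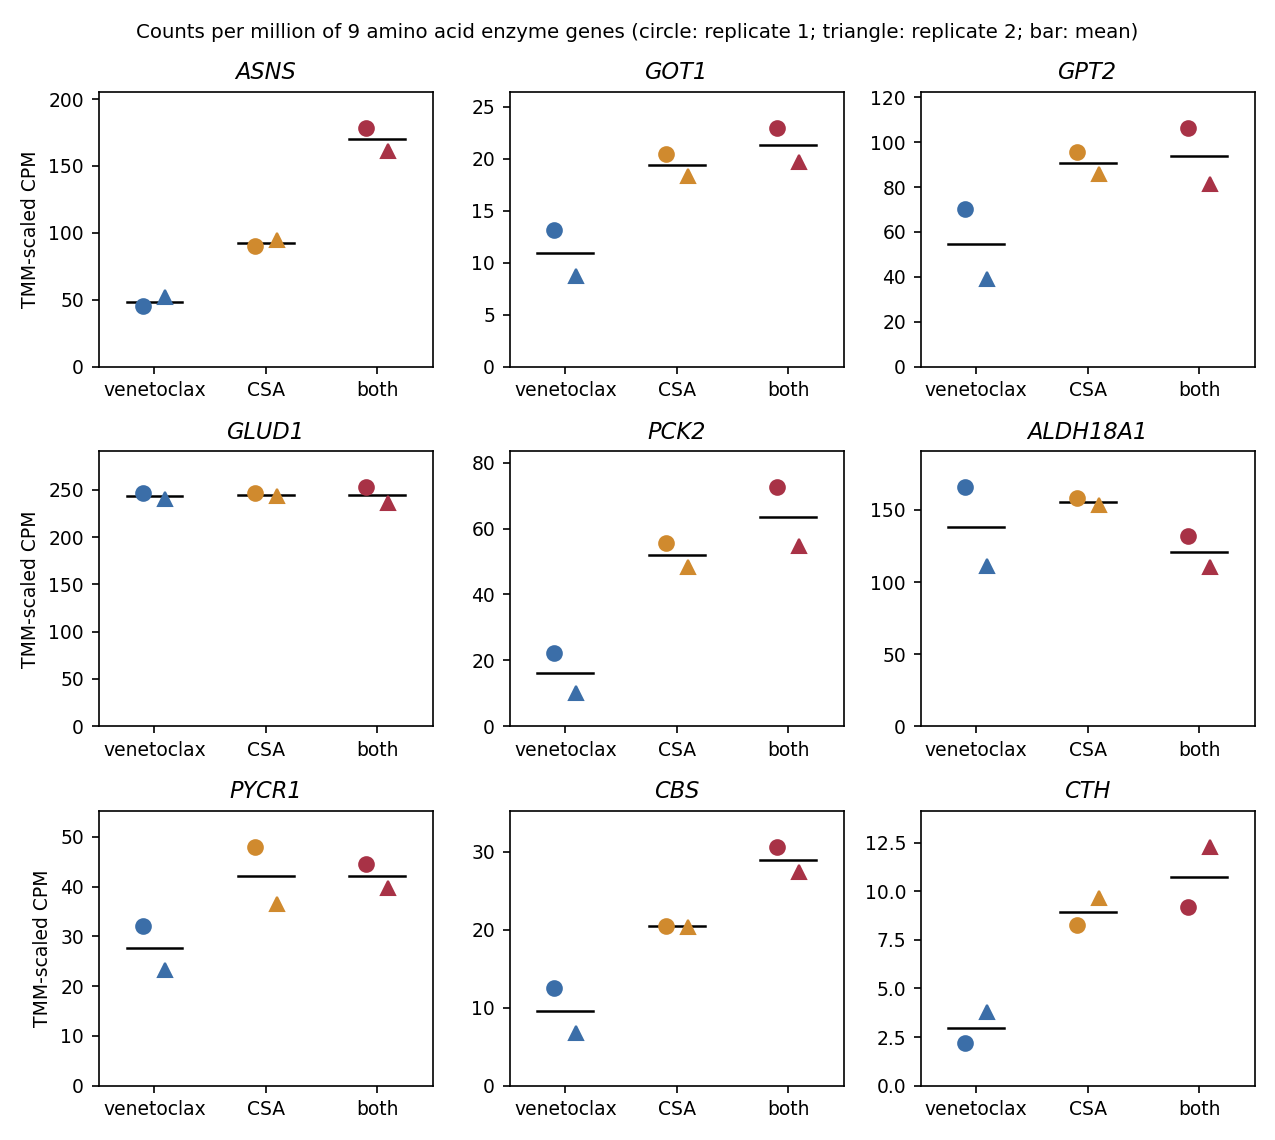
TMM-scaled CPM (linear axis from 0) of each of the 9 genes in the venetoclax, CSA and combination groups; circles are replicate 1, triangles replicate 2 and bars the mean of 2 libraries. ASNS and CBS step upward across the 3 groups with no overlap, GLUD1 stays between 236 and 253, and most of the others are lowest with venetoclax.

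ASNS, asparagine synthetase, makes asparagine from aspartate with glutamine as the nitrogen donor. Its gene (ENSG00000070669, chr7:97852118-97872542) was at 45.2 and 51.8 CPM in the venetoclax libraries, 89.9 and 95.0 CPM in the CSA libraries, and 178 and 161 CPM where both drugs were given. The 3 groups did not overlap, and the replicates of each differed by far less than the groups did. ASNS was 3.50-fold higher with the combination than with venetoclax (log2 fold change 1.81, standard error, SE, 0.16) and 1.84-fold higher than with CSA (0.88, SE 0.16). Venetoclax against CSA gave a log2 fold change of −0.93 (SE 0.16). Without venetoclax replicate 2 the values against and of venetoclax were 1.91 (SE 0.13) and −1.04 (SE 0.13).

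GOT1, the cytosolic aspartate aminotransferase, interconverts aspartate and glutamate with their keto acids and takes part in the malate-aspartate shuttle. Its gene (ENSG00000120053, chr10:99396870-99431569) was at 13.1 and 8.75 CPM under venetoclax, 20.5 and 18.4 CPM under CSA alone, and 23.0 and 19.7 CPM under the combination. Both venetoclax libraries lay below the other 4, while CSA and the combination overlapped. Against venetoclax the log2 fold change of the combination was 0.96 (SE 0.25), and 0.71 (SE 0.18) without venetoclax replicate 2.

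GPT2, the mitochondrial alanine aminotransferase, makes alanine or, in the other direction, pyruvate and glutamate. This gene (ENSG00000166123, chr16:46884378-46931297) was at 70.1 and 39.2 CPM in cells given venetoclax, 95.6 and 86.0 CPM in those given CSA, and 106 and 81.3 CPM in those given both. The venetoclax libraries were again the lowest, and the combination libraries lay on either side of both CSA libraries. The log2 fold change of the combination against venetoclax was 0.78 (SE 0.31) and came down to 0.43 (SE 0.19) without venetoclax replicate 2.

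GLUD1, mitochondrial glutamate dehydrogenase, turns glutamate into the citric acid cycle intermediate alpha-ketoglutarate. The gene (ENSG00000148672, chr10:87050486-87094866) was at 247 and 240.4 CPM in the venetoclax libraries, 246 and 243 CPM in the CSA libraries, and 253 and 236 CPM where both drugs were given. All 3 groups overlapped, and the highest library was 1.07 times the lowest. Its log2 fold changes were 0.00, −0.00 and −0.01, each with an SE of 0.14. GLUD2, an intronless copy on the X chromosome, had at most 33 counts in a library, so it held little of the signal, although reads of the 2 genes may be split between them.

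PCK2, the mitochondrial phosphoenolpyruvate carboxykinase, feeds carbon from the citric acid cycle, and so from glutamine and glutamate, into phosphoenolpyruvate. It had the widest range of the 9, with the highest library 7.12 times the lowest. Its gene (ENSG00000100889, chr14:24094053-24110598) was at 22.2 and 10.2 CPM under venetoclax, 55.5 and 48.4 CPM under CSA alone, and 72.5 and 54.6 CPM under the combination. The venetoclax libraries were below all others, and CSA and the combination overlapped. The combination exceeded venetoclax 3.91-fold (log2 fold change 1.97, SE 0.39), or by 1.53 (SE 0.22) without venetoclax replicate 2. Venetoclax was below CSA by −1.68 (SE 0.39) with all libraries and by −1.23 (SE 0.22) without that one.

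Proline is made from glutamate by ALDH18A1, which carries out the first steps in mitochondria, and by PYCR1, which carries out the last. ALDH18A1 (ENSG00000059573, chr10:95605929-95656706) was at 166 and 111 CPM in cells given venetoclax, 158 and 153 CPM in those given CSA, and 132 and 110.2 CPM in those given both. Both combination libraries were below both CSA libraries, with a log2 fold change of −0.36 (SE 0.23), and the venetoclax libraries spanned nearly the whole range. Against venetoclax its log2 fold change was −0.20 (SE 0.23) and −0.45 (SE 0.14) without venetoclax replicate 2, but 0.01 when libraries were scaled by size alone. PYCR1 (ENSG00000183010, chr17:81932384-81942412) was at 32.1 and 23.3 CPM in the venetoclax libraries, 48.0 and 36.4 CPM in the CSA libraries, and 44.6 and 39.8 CPM where both drugs were given. Both PYCR1 libraries of venetoclax were below the other 4, and the combination against venetoclax gave 0.61 (SE 0.24), or 0.40 (SE 0.21) without venetoclax replicate 2. The 2 steps of the same pathway thus had different profiles, and the difference between their fold changes was not tested.

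Cysteine is made from homocysteine in the transsulfuration pathway, where CBS forms cystathionine and CTH splits it. CBS (ENSG00000160200, chr21:43053191-43076943) was at 12.5 and 6.79 CPM under venetoclax, 20.5 and 20.4 CPM under CSA alone, and 30.6 and 27.4 CPM under the combination. The 3 groups did not overlap. The combination was 3.00-fold above venetoclax (log2 fold change 1.58, SE 0.31), or 1.22 (SE 0.16) without venetoclax replicate 2, and it was 0.50 (SE 0.30) above CSA. The count table also lists CBSL (chr21:6444869-6468040), a near-identical copy in the reference, and reads of the 2 may have been split arbitrarily. CBSL was at 8.95 and 4.99 CPM in cells given venetoclax, 16.2 and 14.7 CPM in those given CSA, and 21.5 and 19.2 CPM in those given both. With the pair summed the log2 fold changes were 1.57, 0.46 and −1.11 when the combination was set against venetoclax, when it was set against CSA, and when venetoclax was set against CSA.

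CTH (ENSG00000116761, chr1:70411218-70439851) was the least abundant member in CPM, at 2.20 and 3.77 CPM in the venetoclax libraries, 8.26 and 9.63 CPM in the CSA libraries, and 9.18 and 12.3 CPM where both drugs were given. Venetoclax lay below the other 4 libraries, and CSA and the combination overlapped. The log2 fold change of the combination against venetoclax was 1.86 (SE 0.33), and 2.28 (SE 0.28) without venetoclax replicate 2. CTH and ASNS had their higher venetoclax value in replicate 2, and the other 7 genes had it in replicate 1.

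**Figure D2:**
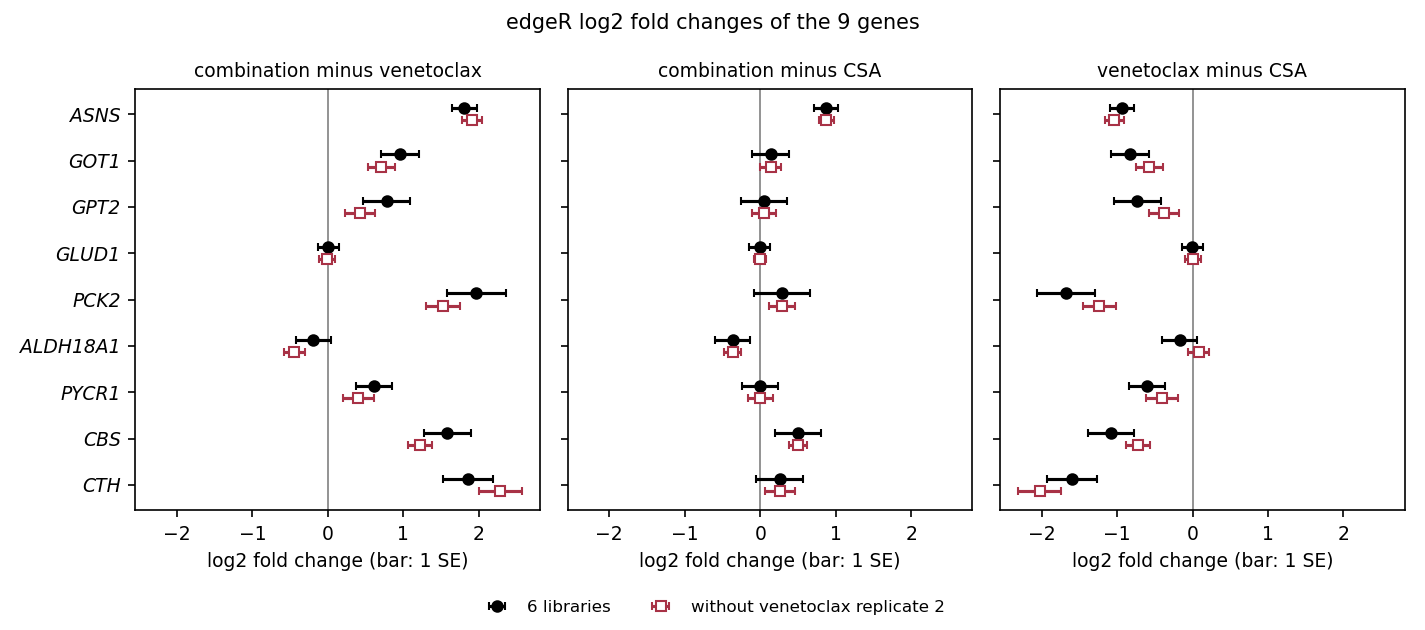
Log2 fold changes from edgeR (horizontal axis, bars 1 SE) of the 9 genes in the 3 comparisons, with all 6 libraries (filled circles) and without venetoclax replicate 2 (open squares). In combination minus venetoclax 7 genes lie to the right of 0 by 0.61 to 1.97 with all libraries; in combination minus CSA ASNS lies farthest from 0, at 0.88.

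The combination against venetoclax asks how CSA given on top of venetoclax bears on these genes, taking the doses of the mixture to be those of the single drugs. Of the 9 genes 8 had a fold change above 1, where 49.1% of all 12690 genes tested did, and the median log2 fold change of the 9 was 0.96 against −0.01 for all genes. In 7 of them both combination libraries were above both venetoclax libraries, which was so for 19.2% of all genes. The exceptions were GLUD1 and ALDH18A1. In bulk RNA fewer cells of a kind and less RNA per cell cannot be told apart. With all 6 libraries edgeR's quasi-likelihood test with Benjamini-Hochberg adjustment called none of the 9 and 0% of all genes at an adjusted p under 0.05. ASNS had adjusted p = 0.0703, where the smallest of any gene was 0.0580. At an unadjusted p under 0.05 the same test took 7 of the 9 as higher, against 5.33% of all genes.

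DESeq2 on the same 6 libraries called 5 of the 9 as higher, against 1.36% of all genes: ASNS (adjusted p = 1.85e-16), PCK2 (adjusted p = 0.000128), CTH (adjusted p = 0.000156), CBS (adjusted p = 0.000548) and GOT1 (adjusted p = 0.0494). Without venetoclax replicate 2, so with 1 venetoclax library, edgeR called ASNS alone (adjusted p = 0.0405), against 0.232% of genes called higher, with CTH at 0.0638, CBS at 0.0702 and PCK2 at 0.0820. DESeq2 without that library called 4, ASNS, PCK2, CBS and CTH, against 2.19% of genes called higher. The median of the 9 was then 0.71 in edgeR. Where the replicate number is also a block and venetoclax replicate 2 is left out, the block's effect comes from the CSA and combination libraries alone. Such a fit has fewer residual degrees of freedom, and the labels do not pair the libraries. With the replicate number as a block and without that library, edgeR called the same 4 genes as higher, against 1.02% of genes. Leaving out venetoclax replicate 1 instead, so that the library rich in mitochondrial counts was the only one for venetoclax, gave 7 of the 9 as higher, 13.1% of all genes called higher, and a median of 1.29.

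The combination against CSA asks the same of venetoclax given on top of CSA, and it shares the combination libraries with the comparison above. The median log2 fold change of the 9 was 0.14 against −0.00 for all genes, with single genes from −0.36 for ALDH18A1 to 0.88 for ASNS. That median went from 0.02 without combination replicate 1 to 0.23 without combination replicate 2, and was 0.06 without CSA replicate 2 and 0.21 without CSA replicate 1. ASNS and CBS had both combination libraries above both CSA libraries, where 23.5% of all genes did, and ALDH18A1 had both below, where 23.7% did. EdgeR called none of the 9 and 0% of all genes. At an unadjusted p under 0.05 it took 1 of the 9 as higher, ASNS (adjusted p = 0.646), against 1.95% of genes. With the replicate block and all 6 libraries edgeR did not call ASNS either (0.88, SE 0.16, adjusted p = 0.593). Nor did it without a block when venetoclax replicate 1 or replicate 2 was left out (0.88, SE 0.10, in both fits). DESeq2 called ASNS alone (adjusted p = 0.00320), against 0.26% of genes called higher. It also did so without venetoclax replicate 2, against 0.997%. EdgeR with the replicate block and without that library called ASNS as well (log2 fold change 0.87, SE 0.08, adjusted p = 0.0337), against 0.294% of genes called higher.

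Venetoclax against CSA compares the single drugs and shares libraries with both comparisons above. All 9 fold changes were below 1, where 50.2% of all genes were, although the log2 fold change of GLUD1 was −0.01 and that of ALDH18A1 went from −0.17 (SE 0.23) to 0.08 without venetoclax replicate 2. The median log2 fold change was −0.82 against −0.00 for all genes, and −0.57 without venetoclax replicate 2. In 7 of the 9 both venetoclax libraries were below both CSA libraries, where 19.9% of all genes were. EdgeR called none of the 9 and 0% of all genes. At an unadjusted p under 0.05 it took 6 of the 9 as lower, against 2.46%. DESeq2 called 3 as lower, against 0.299% of genes: ASNS (adjusted p = 0.00138), PCK2 (adjusted p = 0.00837) and CTH (adjusted p = 0.00849). Without venetoclax replicate 2 it called the same 3, against 0.533%, while edgeR called none of the 9 and 0% of genes. EdgeR with the replicate block and without that library also called none of the 9, against 0.0773% of genes called lower. Without venetoclax replicate 1, which leaves the library rich in mitochondrial counts alone in its group, edgeR called 7 as lower, where 16.9% of genes were called lower and 16.9% higher.

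A strict order, venetoclax below CSA below combination with no overlap at either step, held for 2 of the 9 genes, ASNS and CBS, and for 4.64% of all genes tested. The replicates differed in a shared direction. In 7 of the 9 genes replicate 2 was below replicate 1 in all 3 groups, which was so for 24.7% of all genes, and CTH was above in all 3. The widest such gaps were in venetoclax, where PCK2 differed by −1.08 and CBS and GPT2 by −0.83 each on the log2 scale. Replicate 2 also had the larger mitochondrial share in each group, at 41.5% against 8.01% with venetoclax, 9.71% against 7.41% with CSA and 15.2% against 8.06% with the combination. The part of that difference in the members' values was not tested.

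For levels between genes, CPM was divided by the kilobases of merged exons, which overstates the length of genes with many alternative exons. Averaged over the 6 libraries, GLUD1 had 69.4 CPM per kb, ALDH18A1 36.8, ASNS 23.3, PYCR1 12.9, GPT2 12.6, PCK2 10.5, GOT1 5.12, CTH 3.13 and CBS 2.90. In that order GLUD1 alone had a range over the 6 libraries clear of its neighbour's, at 67.0 to 71.8 against 29.2 to 44.0 CPM per kb for ALDH18A1. Each later pair of neighbours overlapped in their ranges, although GOT1 was above CTH within every library. The place of ASNS in this order differed between groups: with venetoclax it had 10.2 and 11.6 CPM per kb, below the 44.0 and 29.6 of ALDH18A1, and with the combination it had 40.1 and 36.2, above the 35.0 and 29.2 of ALDH18A1.

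Isoenzymes in other compartments gave ratios inside each library that do not depend on scaling. GOT2 is the mitochondrial partner of GOT1 in the malate-aspartate shuttle, and the ratio of GOT1 to GOT2 in counts per kb was 0.233 and 0.198 under venetoclax, 0.364 and 0.342 under CSA alone, and 0.506 and 0.478 under the combination. The 3 groups did not overlap in this ratio. GOT2 itself was at 46.2 to 62.9 CPM, with a log2 fold change of −0.21 (SE 0.18) in the combination against venetoclax, or −0.37 (SE 0.12) without venetoclax replicate 2. In the combination against CSA it was −0.34 (SE 0.18) for GOT2 and 0.14 (SE 0.25) for GOT1, so GOT2 moved more in that step of the ratio. An exact two-sided permutation test of 2 libraries against 2 cannot give a p under 0.333, and the ratios are given as values, with no test.

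PYCR3, a cytosolic relative of PYCR1, was at 30.7 and 9.33 CPM in the 2 venetoclax libraries. Its log2 fold change in the combination against venetoclax was 0.44 (SE 0.60) and turned to −0.17 (SE 0.45) without venetoclax replicate 2. The ratio of PYCR1 to PYCR3 was 1.18 and 2.80 under venetoclax, 1.21 and 1.60 under CSA alone, and 1.49 and 2.15 under the combination, and the groups overlapped. The ratio of ALDH18A1 to PYCR1, chosen after its values were seen, was 3.96 and 3.66 in the venetoclax libraries, 2.52 and 3.22 in the CSA libraries, and 2.27 and 2.12 where both drugs were given.

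GPT, the cytosolic alanine aminotransferase, was at 2.81 to 6.25 CPM, and the ratio of GPT2 to GPT lay between 6.06 and 11.2 in every library. The lowest value of this ratio in the combination, 7.64, was above the highest elsewhere, 6.95. In the combination against CSA the log2 fold change was −0.49 (SE 0.27) for GPT and 0.05 (SE 0.31) for GPT2. PCK1, the cytosolic form of PCK2, had 0 counts in every library.

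**Figure D3:**
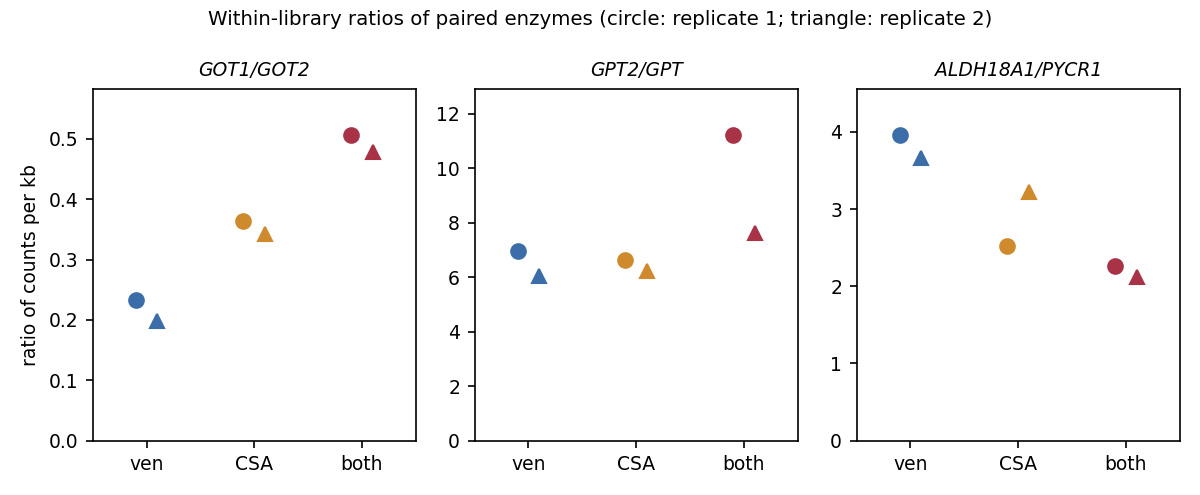
Ratios of counts per kb of merged exons between paired enzymes within each library (linear axes from 0; circles replicate 1, triangles replicate 2). GOT1 to GOT2 goes from about 0.198 to 0.233 with venetoclax to 0.478 to 0.506 with the combination, and ALDH18A1 to PYCR1 is highest with venetoclax, at 3.66 and 3.96.

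A list of 32 further enzymes of the same pathways gave 26 that passed the filter on low counts. The rest, ASPG, GLS2, PCK1, PRODH2, BHMT and CDO1, had at most 5 counts in any library. In the combination against venetoclax 17 of the 26 had a fold change above 1, where 49.1% of all genes did, and their median log2 fold change was 0.11, or 0.01 without venetoclax replicate 2. EdgeR called none of the 26 with all libraries, and 1 without venetoclax replicate 2, ASS1 (adjusted p = 0.0480), against 0.232% of genes called higher. DESeq2 called 2 with all libraries, ASS1 and CBSL, against 1.36%. At an unadjusted p under 0.05 edgeR took 3 as higher, ASS1, CBSL and ABAT, against 5.33%, and none as lower. With the replicate block and without venetoclax replicate 2 edgeR called 2 as higher, ASS1 and CBSL, against 1.02% of genes, and 2 as lower, against 0.75%. The lower ones, named after their values were seen, were GLUL, glutamine synthetase (−1.20), and MPST, a sulfurtransferase of cysteine breakdown (−1.60). With all 6 libraries and no block GLUL was at −0.37 (SE 0.48) and MPST at −0.62 (SE 0.53), and for both genes the groups overlapped. GLUL was at 343 and 691 CPM with CSA, 196 and 426 with the combination, but 462 and 340 with venetoclax, replicate 1 first. MPST was at 12.3 and 25.3, 8.70 and 18.5, and 26.8 and 15.0 CPM in that order. For both genes the library left out thus differed from its replicate in the direction opposite to the block's effect. Without venetoclax replicate 1 edgeR called 7 as higher, against 13.1%.

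ASS1, argininosuccinate synthetase, joins citrulline to aspartate on the way to arginine. It was at 103 and 60.2 CPM under venetoclax, 227 and 217 CPM under CSA alone, and 248 and 237 CPM under the combination. Its log2 fold change was 1.57 (SE 0.27) for combination against venetoclax and −1.44 (SE 0.27) for venetoclax against CSA, or 1.23 (SE 0.11) and −1.11 (SE 0.11) without venetoclax replicate 2. It thus lay near the level of CSA in the combination, at 0.13 (SE 0.27). ABAT, which breaks down GABA to feed glutamate carbon into the citric acid cycle, had a log2 fold change of 0.49 (SE 0.20) against venetoclax.

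In the combination against CSA the 26 partners had a median of −0.12, with 0 at an unadjusted p under 0.05 and 0 called by edgeR or DESeq2 with all libraries. GLUL, named after its values were seen, was at −0.73 (SE 0.48) with all 6 libraries, and its groups overlapped. With the replicate block and without venetoclax replicate 2 its log2 fold change was −0.76. In venetoclax against CSA 21 of the 26 were lower, where 50.2% of all genes were, with a median of −0.31 that came to −0.04 without venetoclax replicate 2. There 3 were lower at an unadjusted p under 0.05, against 2.46% of genes: ASS1, CBSL (−1.14, SE 0.31, or −0.79, SE 0.17, without venetoclax replicate 2) and GPT (−0.76, SE 0.27, or −0.49, SE 0.20). With all libraries edgeR called 0 of the 26 and DESeq2 called ASS1, against 0.299% of genes called lower. ASS1 was also the 1 partner called lower by edgeR with the block and without venetoclax replicate 2, against 0.0773%. Without venetoclax replicate 1 edgeR called 10 as lower and 2 as higher, where 16.9% of genes were called in each direction. None of the 33 windows held for 22 of the partners carried the TGATGNAA motif.

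**Figure D4:**
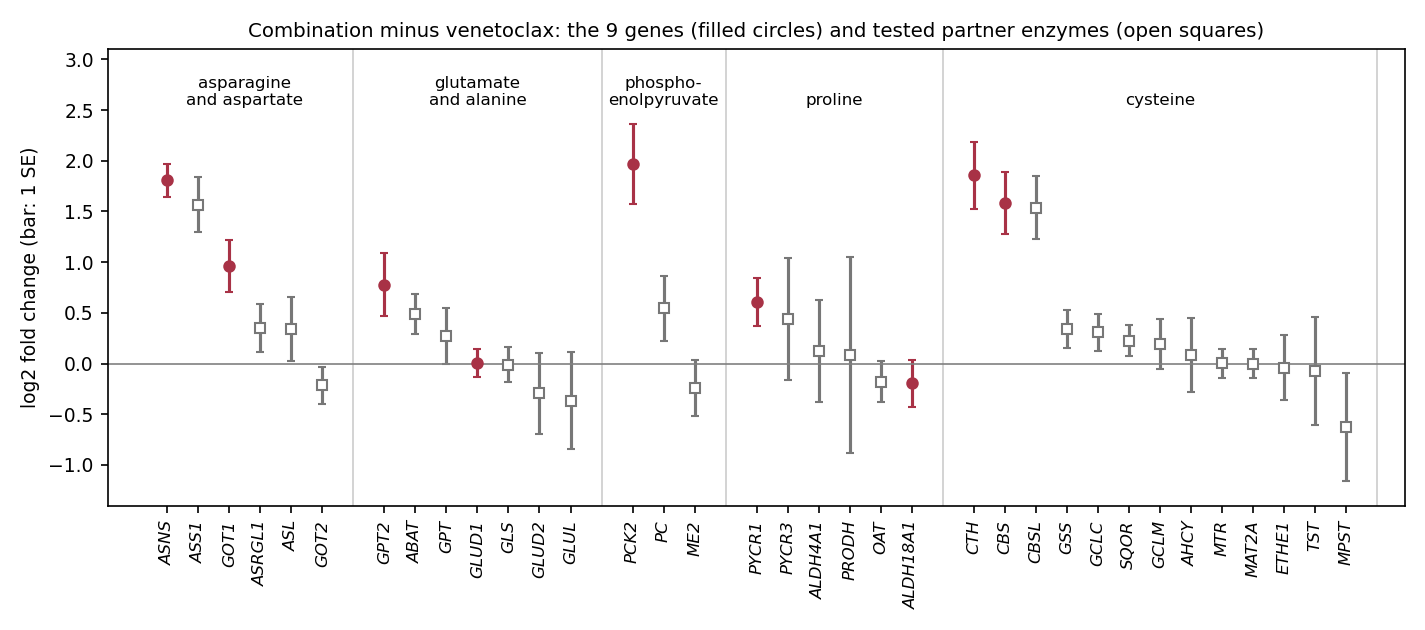
Log2 fold change of combination minus venetoclax (vertical axis, bars 1 SE, all 6 libraries) for the 9 genes (filled circles) and 26 tested partner enzymes (open squares), grouped by pathway. ASNS, PCK2, CTH, CBS and its copy CBSL, and ASS1 lie above 1.5, and most partners lie within 0.5 of 0.

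The genes outside the 9 whose profile was most like that of ASNS were SLC7A11, PSAT1 and GAS7, with root mean square differences of 0.07, 0.11 and 0.11 log2 units over the 6 libraries, among 9866 genes with a mean of at least 5 CPM. SLC7A11 was at 20.03 and 25.8 CPM in cells given venetoclax, 44.9 and 43.3 CPM in those given CSA, and 88.4 and 82.1 CPM in those given both. Among the members themselves GOT1 and GPT2 were the most alike pair, at 0.11 log2 units, and the member nearest to ASNS was CBS, at 0.34.

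ATF4 mRNA was at 353 and 271 CPM in the venetoclax libraries, 480 and 483 CPM in the CSA libraries, and 563 and 568 CPM where both drugs were given, with log2 fold changes of 0.86 (SE 0.18) against venetoclax, or 0.69 (SE 0.10) without venetoclax replicate 2, and 0.23 (SE 0.17) against CSA. In the combination against venetoclax DDIT3, ATF3, CEBPB and CEBPG, which bind DNA with or after ATF4, were at 1.52 (SE 0.20), 1.56 (SE 0.28), 0.84 (SE 0.19) and 0.40 (SE 0.15). Against CSA, in the same order, they were at 0.35 (SE 0.20), −0.12 (SE 0.26), 0.53 (SE 0.19) and 0.23 (SE 0.15). Without venetoclax replicate 2 the values against venetoclax were 1.51, 1.53, 0.69 and 0.42.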

How the data were processed

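RNA was measured in 6 libraries of MV4-11 cells, 2 per drug group, grouped by title. Per the labels' protocols, libraries were made from Trizol-extracted total RNA with a KAPA RNA HyperPrep kit and sequenced as paired reads. The submitters' processing notes name STAR, RSEM, DESeq2 and hg38, with no version or role; the use of strand in counting is not given in these sources. Per gene, the authors deposited unnormalized counts in whole numbers. A treatment label that names gavage was disregarded; doses are those of the growth protocol. Another 2 columns of the table match no sample's labels and were not used.

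Symbols came from the symbol table (19761 of 20263 identifiers), otherwise from GENCODE 29 (GRCh38), which gave coordinates and exon lengths. Genes passing filterByExpr (12690) had TMM scaling and then edgeR's quasi-likelihood test (version 4.0.16, R 4.3.3, robust, two-sided, 1 fit of 6 libraries by group, 3 residual degrees of freedom), with Benjamini-Hochberg adjustment over all genes and a threshold of 0.05. The SE is the size of the log2 fold change divided by the square root of the F statistic. DESeq2 1.42.0 was an alternative. Levels on a log2 scale used CPM plus 0.5.

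Total counts differ little, but venetoclax replicate 2 had a TMM factor of 0.657, against 1.02 to 1.12 in the other libraries. Its usable depth was thus lower, with 71 counts for CTH, 128 for CBS, 165 for GOT1 and 192 for PCK2. Depth limits mainly CTH, and the other members most in that library. Of counts between 1 and 20, 64.8% to 66.7% were even numbers; no member's count was that low. Replicates differed by more than sampling noise (chi-square of 31.5 to 846 per degree of freedom), so each was kept as a library. Expected counts came from total counts without TMM scaling, so the 846 of venetoclax includes the difference in mitochondrial share. Same-numbered libraries deviated together from their group means (correlations 0.24 to 0.34 over the 3 pairs of groups), a hint from the data and not from the labels that the numbers pair them; the fit above has no block, and the block was an alternative.

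The 9 genes, the partner list, the motif and the naming rules were chosen with earlier results of these data known. The rule named every member, fixed isoenzymes and regulators, up to 4 other partners per comparison with the smallest unadjusted p under 0.05, and the 3 genes most like ASNS; 1 partner enzyme is not reported here. The tests were checked on simulated counts.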

Additional observations from a re-analysis of the deposited data

How the results depend on the processing

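Alternatives were DESeq2, size factors of the DESeq2 kind in edgeR, library size alone, no filter on low counts, only the 4 libraries compared, a replicate block, removal of mitochondrially encoded genes, each library left out in turn, and the block without venetoclax replicate 2. Summing CBS with CBSL, and DESeq2 without venetoclax replicate 2, were added after seeing the data. With all libraries edgeR called 0 of the 9 genes in each comparison, and also with the paired fit (replicate block), whose medians were 0.98, 0.13 and −0.85 for the combination against venetoclax, the combination against CSA, and then venetoclax against CSA. In that order DESeq2 called 5, 1 and 3, and 4, 1 and 3 without venetoclax replicate 2, where the first median was 0.70. Without the filter edgeR called 1 in combination against venetoclax. The block without venetoclax replicate 2 called 4 and 1 in the first pair of comparisons. Leaving out 1 library at a time gave 0 to 7 calls in both comparisons with venetoclax, 7 only without venetoclax replicate 1, with medians of 0.71 to 1.29 for combination against venetoclax, 0.02 to 0.23 for combination against CSA and −1.15 to −0.57 for venetoclax against CSA.

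Library size alone moved the median of all genes to 0.26, −0.04 and −0.31; the members' medians of 1.17, 0.10 and −1.07 are read against these. Signs turned for ALDH18A1, GLUD1, GPT2 and PYCR1 and for no other member under these alternatives. ALDH18A1 turned to 0.012 in combination against venetoclax by library size alone and ranged from −0.45 to 0.12 with a library left out; in venetoclax against CSA it turned to 0.005 with the block and 0.087 with DESeq2, both without venetoclax replicate 2, and ranged from −0.485 to 0.084. GLUD1 ranged, with a library left out, from −0.047 to 0.058 in combination against venetoclax, −0.055 to 0.047 in combination against CSA and −0.027 to 0.007 in venetoclax against CSA; DESeq2 without venetoclax replicate 2 gave −0.015 in the first and 0.010 in the last. In combination against CSA GPT2 ranged from −0.16 to 0.23 and PYCR1 from −0.19 to 0.21, and PYCR1 was at 0.00 with DESeq2, 0.012 with the replicate block and 0.008 with the block without venetoclax replicate 2. The cause of these turns was not tested. With 2 libraries a group, their number limits the precision of every value, and depth limits mainly that of CTH and of venetoclax replicate 2.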
